A study of Homo sapiens with 8 samples.

Results

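TPM2 and 9 other genes of the contractile actin cytoskeleton were followed in MDA-MB-231 cells, a human breast cancer cell line, with and without carboxymethyllysine (CML). The 10 genes are the 4 tropomyosins (TPM1, TPM2, TPM3 and TPM4), MYL9, TAGLN, CNN2, CNN3, ACTN1 and SRF, out of 17649 genes in the expression table. They were chosen by symbol, with the measured difference between CML-exposed and control cells already known, and TPM2 leads the set because it was lower with CML. Their differences between the groups are therefore given below as a description, without p-values.

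Tropomyosins are coiled-coil proteins that lie end to end along actin filaments and govern which other proteins, myosin II among them, can act on the filament. Human cells have 4 tropomyosin genes, and nonmuscle cells commonly use several of them at once, each with its own splice forms. SRF, the serum response factor, is the transcription factor that drives many genes of the contractile cytoskeleton, together with the myocardin-related cofactors (MRTFs), which sense how much monomeric actin is free, or with the ternary complex factors (TCFs), which respond to growth factor signaling.

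RNA-Seq was performed on 4 control libraries and 4 libraries of cells exposed to 1 μM CML for 48 hours (titled NCML by the submitters), and in both groups the replicates are numbered 1 to 4. All 8 libraries come from the same line, which is estrogen receptor negative, and the study's methods describe culture in low-glucose medium with PBS given to the controls. CML is an advanced glycation end product, an adduct of lysine that arises from reactive sugars, and the comparison asks how the cells' transcriptome differs after this exposure. The labels do not say that the replicates are separate cultures, so p-values measure only the spread between these libraries, and an exposure of a single line at 1 dose and 1 time is all that was measured.

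Levels are CPM as deposited, that is, reads per gene relative to the size of the library. The steps between the values gave an estimate of the reads behind them, between 16559922 and 17729526 per control library and between 16161810 and 18954733 per CML library. A single read thus corresponded to 0.0535 to 0.0622 CPM, depending on the library. The means of all 10 genes were above 1 CPM. TPM2 had 240, 231, 220 and 226 estimated reads in control replicates 1 to 4, and 193, 212, 184 and 171 in CML replicates 1 to 4. The most deeply covered of the genes, TPM4, had at least 15825 reads per library, and the least covered, TAGLN, had at most 72. Intervals for counting error below take reads as independent molecules and cover counting error only, since molecular identifiers are not described.

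Marker genes were checked against the labelled cell type. VIM, the mesenchymal intermediate filament gene, had 4068 ± 39.1 CPM in control and 4150 ± 100 CPM in CML libraries (SD, n = 4). The receptor kinase gene AXL and the adhesion receptor gene CD44, both high in this line, had 1186 and 831.6 CPM in control libraries. The epithelial keratin genes KRT18 and KRT8 were at 329.7 and 212.9 CPM, EPCAM at 14.22 CPM and the E-cadherin gene CDH1 at 0.7401 CPM in controls. PGR, the progesterone receptor, stayed under 0.1 CPM in the mean of either group, and ERBB2 (HER2) was at 49.54 CPM in controls and 49.9 CPM with CML. The estrogen receptor gene ESR1 was looked for by symbol and was not in the table used here. Because several of the 10 genes are known from smooth muscle, smooth muscle markers were checked too. Of 10 listed, 6 were in the table used here, and MYOCD, the muscle-specific SRF cofactor, was listed at 0 in all 8 libraries. DES and ACTG2 were under 0.1 CPM in the mean of either group, ACTA2 was at 1.369 CPM in controls and 1.185 CPM with CML, and SMTN, the most abundant, was at 45.03 and 46.81 CPM. The summed level of the smooth muscle markers was 52.1, 50.2, 48.4 and 37.8 CPM in control replicates 1 to 4, and 47.6, 51.3, 54.2 and 41.7 CPM in CML replicates 1 to 4. Of the fibroblast markers, all 6 were in the table and COL1A1, at 10.55 CPM in controls and 11.08 CPM with CML, was the most abundant. PDGFRB was at 3.79 and 4.417 CPM and LUM at 1.014 and 1.457 CPM. PDGFRA, COL1A2 and DCN were at 0.104, 0.05805 and 0.03003 CPM in controls and 0.1542, 0.1644 and 0 CPM with CML. The summed level of the 6 fibroblast markers was 16.3, 14.5, 16.1 and 15.2 CPM in controls and 18.9, 17.5, 17.1 and 15.6 CPM with CML. Of 6 endothelial and leukocyte markers, 4 were in the table. CD68 was the most abundant, at 171.9 CPM in controls and 165.9 CPM with CML. The endothelial genes PECAM1 and VWF were at 3.408 and 0.3721 CPM in controls and 3.005 and 0.4575 CPM with CML. The leukocyte gene PTPRC was at 0.4747 and 0.2796 CPM, and CDH5 and CD3E were not in the table used here. The sum of the 4 markers was 163.2, 178.3, 185.1 and 178.0 CPM in controls and 171.8, 176.1, 175.1 and 155.6 CPM with CML. The groups overlapped in the summed smooth muscle, fibroblast, and endothelial and leukocyte markers. Their part in the results below was not tested.

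Within the groups, the deviation of a library from its group mean differed between genes. It is given here for replicate 4 beside the GC content of each gene's main transcript. Whether base composition has a part in these deviations was not tested. The mean deviation of the 2 replicate 4 libraries from their group means, in log2(CPM + 1), was 0.056 for CNN3, whose main transcript has the lowest GC content of the 10 (43.0%), and −0.095 for SRF, which has the highest (60.8%). Between these ends lay TPM3 (44.3% GC) at 0.028, TPM4 (47.0%) at 0.053 and TPM1 (50.9%) at 0.054. ACTN1 (55.0%) was at −0.082, TAGLN (55.9%) at −0.205, TPM2 (57.7%) at −0.060, CNN2 (58.9%) at −0.077 and MYL9 (60.2%) at −0.100. As means of the 2 libraries, the 4 transcripts of lowest GC content were above 0 and the other 6 below it, although MYL9 in CML replicate 4 alone was at 0.010. Control replicate 1 lay about as far out in the opposite direction for several genes, at 0.226 for MYL9, 0.076 for TPM2, 0.077 for CNN2 and 0.079 for SRF, where control replicate 4 was at −0.210, −0.066, −0.078 and −0.086. TPM4 and TPM1 were at −0.047 and −0.067 in control replicate 1, and at 0.076 and 0.103 in control replicate 4. CNN3 and TPM3, of lowest GC content, were above 0 in both, at 0.020 and 0.019 in control replicate 1 and 0.067 and 0.039 in control replicate 4. TAGLN was at 0.199 in control replicate 3 and −0.192 in control replicate 4. Spearman's rank correlation between GC content and this deviation was −0.76 over the 10 genes, which share these libraries.

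SRF binds a sequence called the CArG box, a run of A and T bases between a pair of C and a pair of G. Promoter windows of RefSeq (GRCh38.p14), each 300 bases long and reaching from 250 bases before a gene's start to 50 after it, were searched for it on both strands. Of the 10 genes, 8 had windows, 17 in all, and SRF, CNN2, TPM4 and ACTN1 had a CArG box in 1 window each. Across all 35116 windows of the annotation, 454 (1.29%) held a CArG box. The parts of these windows before the start are printed 5′ to 3′ along the gene's strand with the CArG boxes in capitals, followed by the first TPM2 window, because TPM2 is the gene that was lower with CML.
SRF (chr6:43171019-43171268, + strand): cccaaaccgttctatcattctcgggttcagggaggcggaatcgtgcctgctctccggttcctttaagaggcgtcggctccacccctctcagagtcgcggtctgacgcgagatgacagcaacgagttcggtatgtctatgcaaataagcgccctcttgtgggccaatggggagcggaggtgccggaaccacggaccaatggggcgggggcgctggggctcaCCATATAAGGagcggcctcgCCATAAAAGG
CNN2 (chr19:1026358-1026607, + strand): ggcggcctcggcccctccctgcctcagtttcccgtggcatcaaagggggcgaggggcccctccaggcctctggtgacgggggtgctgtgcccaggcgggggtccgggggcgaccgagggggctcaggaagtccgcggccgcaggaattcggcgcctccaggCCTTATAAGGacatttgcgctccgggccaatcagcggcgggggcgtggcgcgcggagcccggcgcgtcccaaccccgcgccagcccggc
TPM4 (chr19:16067288-16067537, + strand): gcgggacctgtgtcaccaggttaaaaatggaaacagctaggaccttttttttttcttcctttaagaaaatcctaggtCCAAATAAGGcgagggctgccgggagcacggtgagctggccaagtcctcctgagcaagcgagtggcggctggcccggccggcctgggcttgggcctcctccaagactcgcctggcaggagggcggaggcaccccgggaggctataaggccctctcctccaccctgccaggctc
ACTN1 (chr14:68977567-68977816, - strand): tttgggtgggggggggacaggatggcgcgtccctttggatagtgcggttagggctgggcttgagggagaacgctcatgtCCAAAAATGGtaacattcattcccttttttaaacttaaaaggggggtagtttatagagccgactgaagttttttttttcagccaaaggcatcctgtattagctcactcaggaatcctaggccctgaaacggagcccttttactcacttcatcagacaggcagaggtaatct
TPM2 (chr9:35690057-35690306, - strand): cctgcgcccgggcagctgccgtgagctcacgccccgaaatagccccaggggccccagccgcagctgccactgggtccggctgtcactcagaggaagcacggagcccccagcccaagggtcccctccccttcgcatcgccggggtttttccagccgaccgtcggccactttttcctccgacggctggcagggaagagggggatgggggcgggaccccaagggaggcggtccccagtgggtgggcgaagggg

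The SRF window held a pair of CArG boxes, CCATATAAGG and CCATAAAAGG, whose first bases lie 30 and 10 bases before the start. The box of CNN2, CCTTATAAGG, begins 89 bases before the start, that of TPM4, CCAAATAAGG, 173 bases before it, and that of ACTN1, CCAAAAATGG, 171 bases before one of the 4 ACTN1 starts. Neither of the TPM2 windows held a CArG box, nor did the windows of TPM1, TPM3 and CNN3. The letters TATAAA, the core of another common promoter element, were found in 11.5% of all windows on either strand, and in 1 window each of SRF and ACTN1, where they did not overlap a CArG box. A match describes the letters in a window and is not a measured binding site, and no window says anything about sites farther away.

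TPM2 was the least abundant of the 4 tropomyosin mRNAs, and TPM4 the most abundant. Levels between genes are compared here as CPM per kilobase of each gene's main annotated transcript. TPM4 had the highest level of the 10 genes, with 404 CPM per kilobase as the mean of all 8 libraries, and the crosslinker gene ACTN1 followed at 215. CNN3 and CNN2, which encode calponins found outside smooth muscle that bind actin filaments, were at 87.4 and 59.8 CPM per kilobase. TPM1 was at 56.6, and its range over the 8 libraries (53.0 to 59.7) overlapped that of CNN2 (56.0 to 62.4), so that the order of these 2 genes is not settled. TPM3 was at 47.2 CPM per kilobase and SRF at 25.5. TPM2 stood eighth at 10.3 CPM per kilobase, above MYL9, which encodes a regulatory light chain of myosin II, at 7.87. Last was TAGLN, at 0.887 CPM per kilobase, which encodes the smooth muscle protein transgelin. Apart from CNN2 and TPM1, neighbours in this order did not overlap over the 8 libraries, although the lowest TPM2 library (8.94) was barely above the highest MYL9 library (8.86).

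**Figure D1:**
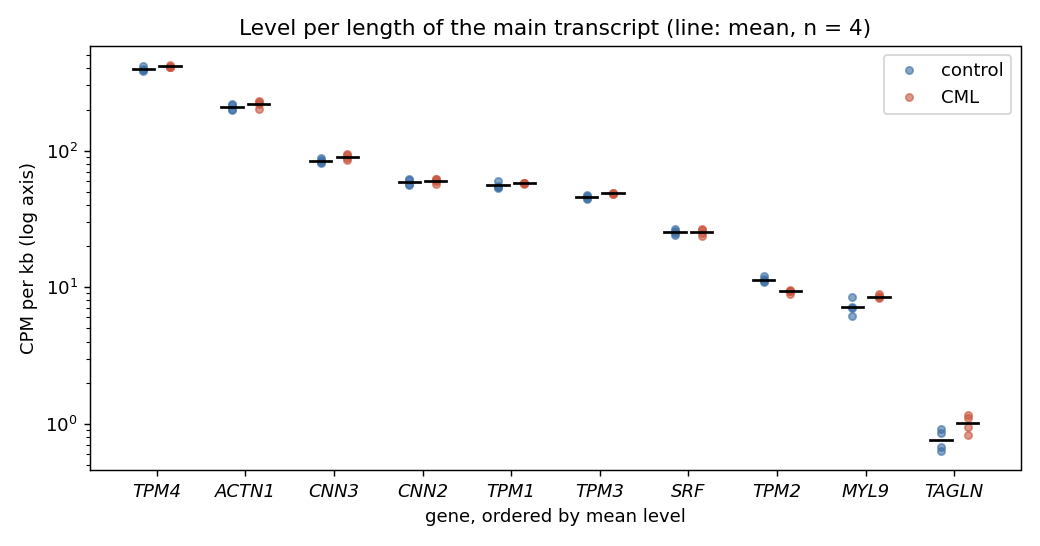
Level of the 10 genes in CPM per kilobase of the main transcript (vertical log axis), in order of the mean over all libraries; points are single libraries of control (blue) and CML-exposed (red) cells, and black lines are means of 4. TPM4 is at the top with a mean of 404 and TAGLN at the bottom with 0.887, and TPM2 is the gene whose CML points lie below its control points.

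The order depended on the length used for TPM3 most of all, whose coding transcripts range from 587 to 7064 bases. With the median length of each gene's coding transcripts, TPM3 moved from sixth to second place at 281 CPM per kilobase, CNN2 (111) came before CNN3 (89.8) and well above TPM1 (53.2), and MYL9 (11.5) came before TPM2 (10.7). TPM4 remained first, at 402, and TAGLN last, at 2.74.

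With CML, TPM2 was lower in every library than in any control library. Its level was 14.31, 13.66, 13.3 and 12.88 CPM in control replicates 1 to 4, and 11.17, 11.34, 11.21 and 10.64 CPM in CML replicates 1 to 4. The lowest control library was therefore above the highest CML library. The means were 13.54 ± 0.605 and 11.09 ± 0.31 CPM (SD, n = 4), a CML to control ratio of 0.819. On the log2(CPM + 1) scale the difference, CML minus control, was −0.27 with a standard error of 0.042 (limma). TPM2 lies at chr9:35681993-35690056 (GRCh38), and the 95% interval of the log2 ratio of its mean CPM from counting error alone, with 917 control and 760 CML reads in all, was −0.43 to −0.15. The spread of the libraries was smaller than counting error would give, with a coefficient of variation of 4.5% in controls and 2.8% with CML where counting alone gives 6.6% and 7.3%.

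TPM1 (chr15:63042747-63071915), TPM3 (chr1:154155308-154192100) and TPM4 (chr19:16067538-16103002), the other tropomyosin genes, had means slightly above control with CML. TPM3 had 326.9, 313.6, 319 and 331.5 CPM in control replicates 1 to 4, and 342.1, 344.6, 339.4 and 347.8 CPM in CML replicates 1 to 4. Every CML library of TPM3 lay above every control library, and the mean was 6.4% higher (322.7 ± 7.98 against 343.5 ± 3.55 CPM, log2 difference 0.09 with a standard error of 0.020). Its pseudogene TPM3P9 is also in the table, so that reads may be split between them. TPM4 had 943.6, 956.7, 973.9 and 1027 CPM in control replicates 1 to 4, and 1016, 1016, 1012 and 1044 CPM in CML replicates 1 to 4. Only control replicate 4 reached into the CML range, and the log2 difference was 0.07 (standard error 0.029). TPM1 had 64.46, 66.04, 67.37 and 72.61 CPM in controls and 68.89, 70.46, 70.63 and 70.38 CPM with CML. Here control replicate 4 was the highest of all 8 libraries, the groups overlapped, and the log2 difference was 0.05 (standard error 0.036). Without control replicate 4, the differences were 0.09 for TPM4 and 0.09 for TPM1, and without control replicate 1 that of TPM1 was 0.03.

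**Figure D2:**
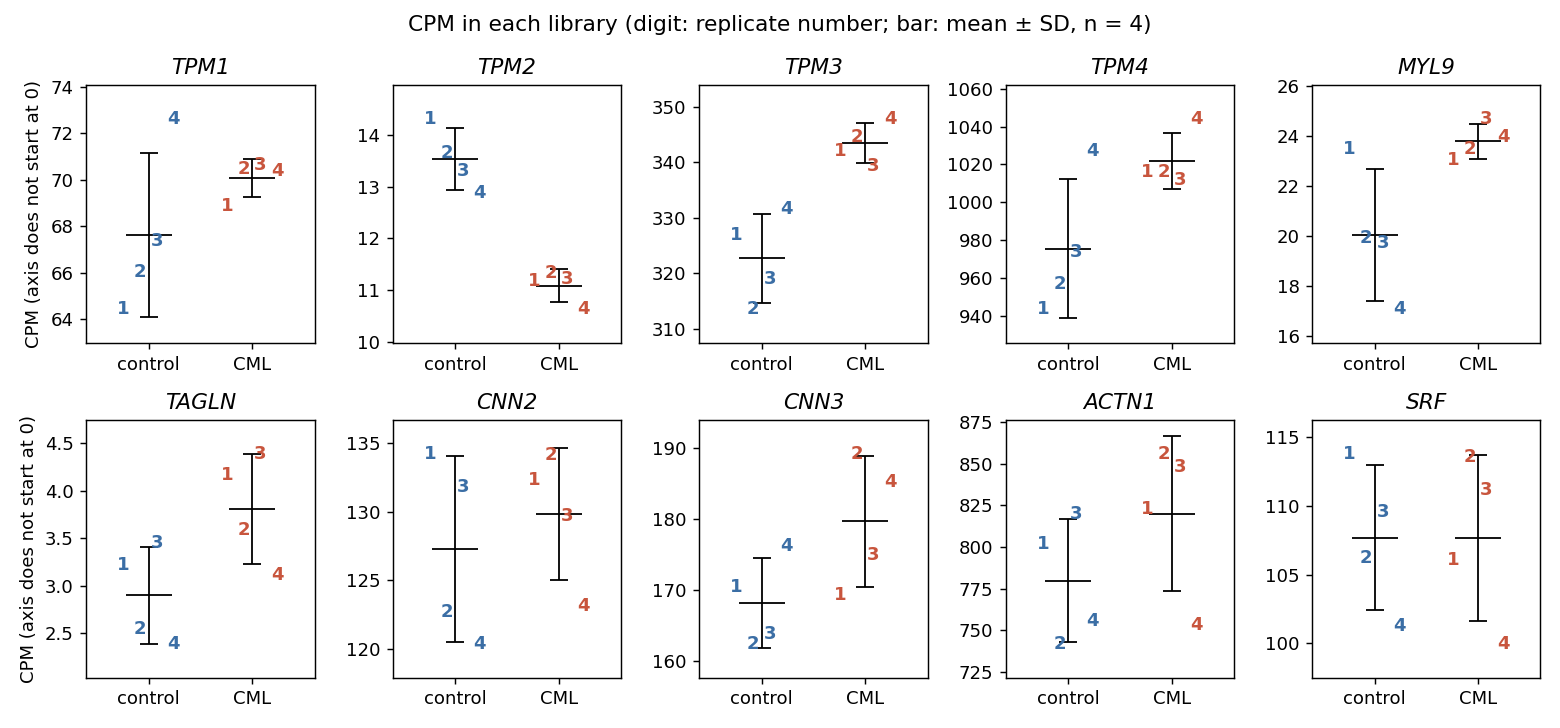
CPM of each of the 10 genes in the 8 libraries, with control in blue and CML in red; digits are replicate numbers, black bars are the mean ± SD of 4 libraries, and no vertical axis starts at 0. The groups do not overlap for TPM2, where CML is lower, and for TPM3, where CML is higher, and they overlap for the other 8 genes.

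Within the summed tropomyosin mRNA, measured in CPM per kilobase, the TPM2 share was lower with CML. It was 2.44%, 2.31%, 2.21% and 2.03% in control replicates 1 to 4, and 1.79%, 1.81%, 1.8% and 1.66% in CML replicates 1 to 4. The mean share was 2.25% ± 0.172 in controls and 1.76% ± 0.0684 with CML (SD, n = 4), a difference of −0.485 percentage points with no overlap. TPM4 made up most of the pool, at 77.8% ± 0.245 in controls and 78.1% ± 0.227 with CML. TPM1 made up 11% and 10.9%, and TPM3 9.02% and 9.2%, and the groups overlapped for TPM1, TPM3 and TPM4. These shares carry the same contrast as the choice of TPM2 and depend on the transcript length assumed. Without any length correction, the TPM2 share was 0.983% in controls and 0.767% with CML, a difference of −0.216 percentage points. The order of TPM1 and TPM3 turned with the length: TPM3 made up 23.4% and TPM1 4.9% of the pool in controls without length correction, and 37.4% and 7.16% with the median length of coding transcripts, where TPM4 made up 53.9%. The ratio of TPM2 to TPM1, in CPM, was 0.222, 0.207, 0.197 and 0.177 in control replicates 1 to 4, and 0.162, 0.161, 0.159 and 0.151 in CML replicates 1 to 4. In both groups replicate 4 had the lowest ratio, and the groups did not overlap.

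MYL9 and TAGLN, which like TPM2 are abundant in smooth muscle, had the largest mean differences in the other direction. MYL9 (chr20:36541519-36551447) had 23.49, 19.92, 19.72 and 17.1 CPM in control replicates 1 to 4, and 23.04, 23.49, 24.68 and 23.96 CPM in CML replicates 1 to 4. The CML libraries lay close together, while control replicate 1 was within the CML range and control replicate 4 far below it. The mean was 20.06 ± 2.63 CPM in controls and 23.79 ± 0.701 CPM with CML (SD, n = 4), 18.6% higher, with a log2 difference of 0.24 (standard error 0.087). The control spread (coefficient of variation 13.1%) was larger than counting gives (5.4%). Without control replicate 1 the difference was 0.32, and without control replicate 4 it was 0.17. TAGLN (chr11:117199294-117207465) had 3.22, 2.542, 3.447 and 2.394 CPM in control replicates 1 to 4, and 4.168, 3.585, 4.388 and 3.111 CPM in CML replicates 1 to 4. In both groups replicates 2 and 4 were the lower ones, and CML replicate 4 fell inside the control range. The mean was 2.901 ± 0.512 CPM in controls and 3.813 ± 0.578 CPM with CML, a log2(CPM + 1) difference of 0.31 (standard error 0.125). With 42 to 72 reads per library, counting error alone gave a 95% interval of 0.13 to 0.66 for the log2 ratio of the mean CPM. TAGLN overlaps PCSK7 on the opposite strand, which had 604 to 789 reads per library, and an unnamed gene on the same strand with at most 4 reads. MYL9 overlaps the antisense gene DLGAP4-AS1, which had 2 to 13 reads, and TPM4 an unnamed gene on the opposite strand with at most 10. Whether reads were counted by strand is not given in the sources used here, so that reads of overlapping genes cannot be told apart.

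CNN3 (chr1:94896957-94927110) had a mean of 168.2 ± 6.36 CPM in controls and 179.7 ± 9.18 CPM with CML, a log2 difference of 0.09 (standard error 0.043). Its libraries ran from 162.5 to 176.2 CPM in controls and from 169.3 to 189.2 CPM with CML, and the groups overlapped. CNN2 (chr19:1026608-1039065) ran from 120.4 to 134.2 CPM in controls and from 123.1 to 134.1 CPM with CML, with a log2 difference of 0.03 (standard error 0.044). That value depended on single libraries. It was 0.055, 0.012, 0.047 and 0.003 without control replicates 1 to 4 in turn, and 0.014 and 0.054 without CML replicates 2 and 4. ACTN1 (chr14:68874128-68979302), whose product alpha-actinin-1 crosslinks actin filaments in stress fibers, had 801.5, 742, 819.8 and 755.4 CPM in control replicates 1 to 4. In CML replicates 1 to 4 it had 822.7, 855.9, 847.9 and 753.4 CPM. CML replicates 1, 2 and 3 were above all controls and CML replicate 4 was below all controls but replicate 2, with a log2 difference of 0.07 (standard error 0.051) that was 0.11 without CML replicate 4.

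The mRNA of SRF itself (chr6:43171269-43181506) had the same mean in the groups to the precision printed, at 107.7 ± 5.27 CPM in controls and 107.7 ± 6.04 CPM with CML (SD, n = 4). It had 113.8, 106.2, 109.6 and 101.3 CPM in control replicates 1 to 4, and 106.1, 113.6, 111.2 and 99.99 CPM in CML replicates 1 to 4. Replicate 4 was the lowest library of each group. The standard error of the log2 difference was 0.050, and counting error alone, with 7294 control and 7387 CML reads, gave a 95% interval of −0.05 to 0.05 for the log2 ratio of the mean CPM. The level of an mRNA gives no measure of the activity of its protein.

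**Figure D3:**
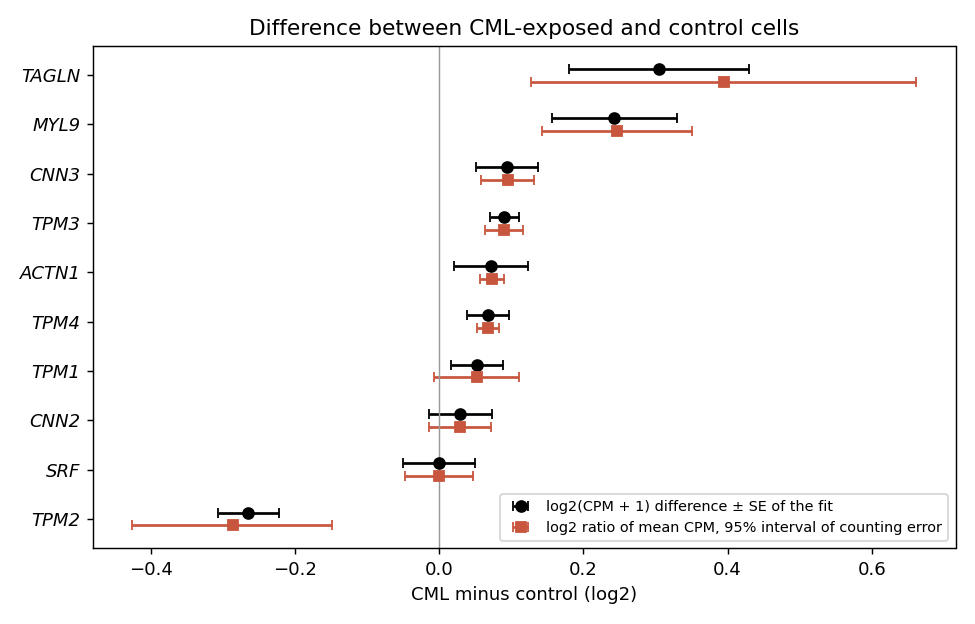
Difference between CML-exposed and control cells for each gene on a log2 scale; black circles are the log2(CPM + 1) difference ± its standard error from limma, and red squares the log2 ratio of mean CPM with the 95% interval of counting error. TPM2 is the only point left of 0 (−0.27), SRF lies at 0, and TAGLN (0.31) and MYL9 (0.24) lie farthest right.

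Counted over the 10 genes, 8 had a positive difference, TPM2 had a negative one and SRF was within 0.005 of 0, with a median of 0.07. Over the 13047 genes whose mean reached 1 CPM, 58.8% were positive, with a median of 0.015. At an adjusted p under 0.3, the threshold the study used for this experiment, limma called TPM3 higher and TPM2 lower, where the background was 0.674% of 17649 genes called higher (119) and 0.221% called lower (39). At 0.05 it called 0 genes, the smallest adjusted p being 0.0604, and 1352 genes had an unadjusted p under 0.05. Groups did not overlap for 3.04% of these 13047 genes in the higher direction and for 1.3% in the lower. Because the 10 genes were selected on this contrast, nothing is read from these counts. The number of the 10 that were called was 0 without control replicate 2, control replicate 3, CML replicate 1, CML replicate 2 or CML replicate 3, and 4 (the 4 tropomyosins) without control replicate 4. With all libraries kept, TPM3 lost its call with a pseudocount of 0.1, without genes under 1 CPM, with centred libraries, after quantile normalization, without the trend, and with the replicate block. In bulk samples, fewer cells of a type and less RNA per cell cannot be told apart.

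The remaining genes of the actin and SRF pathways were taken from 11 lists that leave out the 10 genes. The lists were chosen with earlier results of these data known. Their counts and shares, here and in the paragraphs below, are therefore a description, and nothing is read from them. They name 120 different genes, of which 112 were in the table used here and 102 reached a mean of 1 CPM. Of the 112, limma called 6 higher with CML (adjusted p under 0.3) and 0 lower: CCN1, CCN2, ANKRD1, DUSP5, ANLN and DIAPH3. Over the whole table, the shares called were 0.674% higher and 0.221% lower. Among the 102 genes, 88 (86.3%) had a positive difference, with a median of 0.04, where all genes at that level gave 58.8% and 0.015. The groups did not overlap for 9 of the genes, all higher with CML, namely the 6 called genes, the TCF gene ELK3, the early-response gene NR4A1 and the crosslinker gene PLS1, and for 0 genes lower with CML, where the shares over all genes at that level were 3.04% and 1.3%. None of the 95 listed genes that averaged 10 CPM or more had a difference as low as that of TPM2, the lowest being −0.10 for the formin gene DAAM1, whose groups overlapped. TPM2 was chosen because it was lower with CML, so its place in this order follows in part from the choice. The share of positive differences depended on the scaling of the libraries. It was 74.5% where 47.1% of all genes were positive once each library was centred on its median, and 72.5% where 50.1% were positive after quantile normalization. Over the whole table, centring turned the split of 119 higher and 39 lower (75.3% higher) into 46 and 27 (63.0%), and quantile normalization gave 90 and 54 (62.5%).

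**Figure D4:**
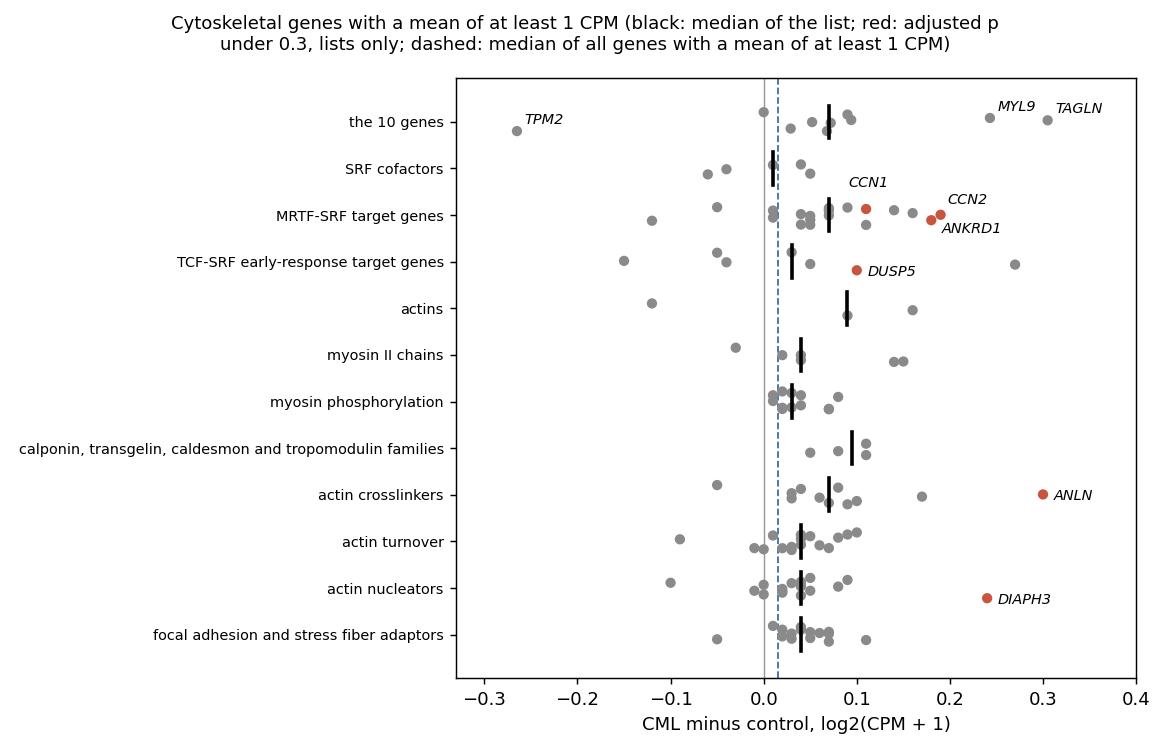
Log2(CPM + 1) difference, CML minus control (horizontal axis), of the 10 genes and of the genes of 11 pathway lists, where the mean reached 1 CPM; each point is a gene, vertical position within a row is arbitrary, black bars are medians, the dashed line is the median of all genes at that level (0.015), and red points are listed genes with an adjusted p under 0.3 in limma (the 10 genes are left gray whatever their p). The red points all lie to the right of 0, and TPM2 (−0.27), chosen because it was lower with CML, lies left of every listed gene.

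Among the 19 of 20 listed MRTF-SRF target genes that were in the table, 3 rose with CML and 0 fell, with a median log2 difference of 0.07. CCN2, a secreted matricellular protein gene, had 259.9, 260.1, 254.9 and 267.6 CPM in control replicates 1 to 4, and 296.4, 293.9, 302.3 and 300.6 CPM in CML replicates 1 to 4. All CML libraries were above all controls, with a log2 difference of 0.19 (standard error 0.018, limma adjusted p = 0.0604), the smallest adjusted p in the table. ANKRD1, which encodes an ankyrin repeat protein and like CCN1 and CCN2 is also known as a target of the Hippo effectors YAP and TAZ, rose from 607.4 ± 17.4 to 689.3 ± 12 CPM (log2 difference 0.18, limma adjusted p = 0.098). CCN1, a second matricellular protein gene, rose from 819.5 ± 5.26 to 885.1 ± 20.8 CPM (log2 difference 0.11, limma adjusted p = 0.189). The most abundant targets did not pass the test. FLNA, which encodes filamin A, was at 2650 ± 235 and 2724 ± 194 CPM, with replicate 4 the lowest library of each group. The actin genes ACTB (1954 ± 74.7 and 2085 ± 71.9 CPM, log2 difference 0.09) and ACTG1 (1696 ± 97.2 and 1894 ± 86.3 CPM, 0.16) had limma adjusted p-values of 0.65 and 0.497. CCN2 overlaps LINC01013 on the opposite strand, and CCN1 and ANKRD1 overlap no other annotated gene.

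Of the SRF cofactors, 0 of 6 passed the test, with a median difference of 0.01 over the 5 that reached a mean of 1 CPM. The TCF gene ELK3, the most abundant, was at 188.9 ± 3.08 CPM in controls and 195.2 ± 1.57 CPM with CML, and ELK4 and ELK1 were at 106.9 and 56.51 CPM in controls and 103.9 and 56.81 CPM with CML. The genes of the actin-sensing cofactors, MRTFA and MRTFB, were at 19.23 and 14.96 CPM in controls and 18.45 and 15.34 CPM with CML. Of 9 TCF-SRF early-response targets, DUSP5, a phosphatase gene that acts on ERK, rose from 292.5 ± 1.43 to 314.6 ± 6.31 CPM (log2 difference 0.10, limma adjusted p = 0.145), and the other 8 did not pass. The control libraries of DUSP5 lay between 291 and 294.3 CPM and its CML libraries between 306.8 and 320.1 CPM. MCL1, a survival gene, was at 530.6 CPM in controls and 547.8 CPM with CML, and the immediate-early gene IER2 at 104 and 105.6 CPM.

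ANLN, which encodes the actin crosslinker anillin of the cytokinetic ring, and DIAPH3, a formin gene, were the other called genes, and both products act in cell division. ANLN had 92.48, 91.87, 96.82 and 101.6 CPM in control replicates 1 to 4, and 110.4, 115.1, 121.8 and 126.5 CPM in CML replicates 1 to 4. Every CML library was above every control library, and the log2 difference was 0.30 (standard error 0.051, limma adjusted p = 0.173). DIAPH3 rose from 32.26 ± 1.46 to 38.23 ± 1.25 CPM (log2 difference 0.24, limma adjusted p = 0.153). Both genes overlap annotated genes on the opposite strand. The other 12 crosslinker genes in the table did not pass, including ACTN4, the nearest relative of ACTN1 expressed here, at 651.6 and 700.3 CPM (log2 difference 0.10, limma adjusted p = 0.783). Nor did the other 16 nucleator genes, of which the ARP2/3 complex genes ACTR2, ARPC3 and ARPC2 were the most abundant, at 338, 254 and 243.2 CPM in controls and 349, 258.6 and 249.4 CPM with CML.

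The calls of the listed genes depended on single libraries. CCN2 was called with any 1 library left out, and ANKRD1 with any but CML replicate 2. DUSP5 lost its call without control replicate 2 or 3 or CML replicate 3, ANLN without control replicate 1, 2 or 3 or CML replicate 2 or 3, and DIAPH3 without control replicate 2 or 3 or CML replicate 2, 3 or 4. CCN1 kept its call only without control replicate 4 or CML replicate 4. CCN1 and DUSP5 also lost their calls with centred libraries and after quantile normalization, and DUSP5 when genes averaging under 1 CPM were left out. Other listed genes gained a call under an alternative: ACTG1 without genes under 1 CPM, MYH9 and PDLIM5 with the replicate block, ELK3, PALLD, PDLIM5, PLS1, TES, TMOD3 and TWF1 without control replicate 4, and 10 genes after correction for GC content and transcript length, among them ACTB, ACTG1, ACTN4, MYH9, TAGLN2, TMOD3, CAPG, PDLIM5 and PLS3. In all, the number of listed genes called was 4, 2, 2 and 13 without control replicates 1 to 4 in turn, and 5, 2, 2 and 5 without CML replicates 1 to 4.

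Myosin II itself, the motor that tropomyosins gate, showed 0 called genes among the 7 chains in the table (median difference 0.04 over the 6 that reached a mean of 1 CPM). The heavy chain gene MYH9 was at 806.5 ± 49.1 CPM in controls and 885.8 ± 46.7 CPM with CML (log2 difference 0.14, limma adjusted p = 0.635). MYL12B and MYL12A, the nonmuscle regulatory light chain genes that are the relatives of MYL9, were at 462.8 and 374.5 CPM in controls and 474.5 and 380.7 CPM with CML. Of 12 genes that act on myosin phosphorylation, 0 passed, with differences from 0.013 to 0.079 and a median of 0.03. All 12 were positive, where 58.8% of all genes at that level were, and 9 of 12 were positive with centred libraries or after quantile normalization. The most abundant were the small GTPase gene RHOA (539.2 and 552.4 CPM), the exchange factor gene ARHGEF2 (442.5 and 451.6 CPM) and the phosphatase subunit gene PPP1CB (296.4 and 304.2 CPM).

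In the families nearest to CNN2, CNN3 and TAGLN, 6 of 11 listed genes were in the table and 0 passed, with a median difference of 0.095 over the 4 that reached a mean of 1 CPM. TAGLN2, the widely expressed transgelin, was at 269.8 ± 9.42 and 285.4 ± 10 CPM. CALD1, which encodes caldesmon, a partner of tropomyosin on the filament, was at 117.5 and 121.3 CPM. TMOD3, whose product tropomodulin 3 caps the pointed ends of tropomyosin-coated filaments, was at 114 ± 5.87 and 123.1 ± 1.3 CPM (log2 difference 0.11, limma adjusted p = 0.492), and control replicate 4, at 121.6 CPM, was level with the lowest CML library. The 5 actin genes in the table (median 0.09 over the 3 that reached a mean of 1 CPM), the 16 actin turnover genes (median 0.04) and the 15 focal adhesion and stress fiber adaptors (median 0.04) held 0 called genes each. The actin-binding TMSB4X, TMSB10 and PFN1 were at 1107, 955.1 and 761.7 CPM in controls and 1126, 950.7 and 761.1 CPM with CML. TLN1, the talin gene, was at 906.4 and 934.5 CPM, LASP1 at 629.4 and 632.4 CPM, and PXN, the paxillin gene, at 409.4 and 416.3 CPM.

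Once the group means were removed, some of the 10 genes still varied together. The same correlations were not computed over all pairs of genes, so they are not shown to be particular to this set. Over the 8 libraries, Pearson's r between deviations from the group mean was above 0.8 in size for 9 of the 45 gene pairs, with a median size of 0.59. TPM2 moved with SRF (r = 0.86) and against TPM4 (r = −0.91), while TPM1 and TPM4 moved together (r = 0.92). SRF also moved with CNN2 (r = 0.87) and ACTN1 (r = 0.87). When each library was corrected for the GC content and length of the transcripts, a setting chosen after seeing the data, 3 pairs were above 0.8 in size and the median size was 0.28. The r of TPM2 was then 0.02 with SRF and 0.14 with TPM4, and that of SRF was 0.25 with CNN2 and 0.31 with ACTN1, whereas TPM1 and TPM4 kept an r of 0.89. The other 2 pairs above 0.8 after the correction were below it before: TPM2 with TAGLN went from 0.54 to −0.86, and CNN3 with SRF from −0.10 to 0.81. Spearman's rank correlation between GC content and the replicate 4 deviation was −0.18 after this step. The step itself takes out the trend with GC content in each library, so nothing is read from the smaller value. These correlations describe 8 libraries that share their depth and composition, and carry no test.

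**Figure D5:**
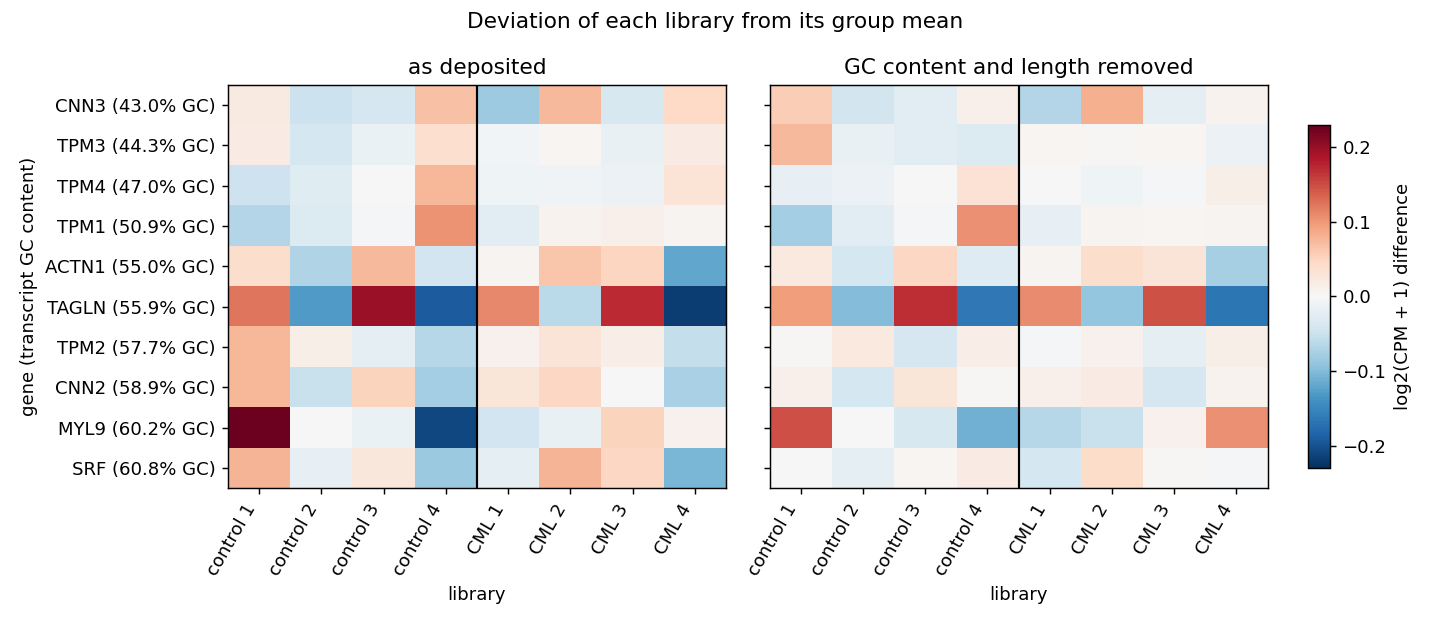
Deviation of each library from its group mean (color, log2(CPM + 1)) for the 10 genes, ordered by the GC content of the main transcript, as deposited (left) and after correction for GC content and length (right); columns are control replicates 1 to 4 and CML replicates 1 to 4. In the left panel most genes in the lower rows are blue in both replicate 4 columns and the upper 4 rows are red or near 0, and in the right panel TPM2 and SRF are close to white.

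The TPM2 difference between the groups kept its size under the correction for GC content and length, at −0.27. The spread of TPM2 about its group means went from 0.05 to 0.02 (SD of log2(CPM + 1)). As deposited, this spread was already smaller than counting error alone would give (coefficients of variation of 4.5% and 2.8%, against 6.6% and 7.3%). Its further fall is therefore not read as a gain in precision. After the correction, the differences were 0.08 for TPM3, 0.06 for TPM4, 0.05 for TPM1, 0.24 for MYL9 and 0.30 for TAGLN. They were 0.07 for ACTN1, 0.08 for CNN3 and 0.02 for CNN2, and SRF was again near 0. Across the 9409 genes that averaged 10 CPM or more, among those whose deviations were most like those of TPM2 as deposited were MNT (r = 0.998), PPAN (r = 0.993), TMEM184B (r = 0.986) and BOP1 (r = 0.985). The genes most opposite were OPA1 (r = −0.993), KPNA4 (r = −0.991), NUDCD1 (r = −0.990), FBXO11 (r = −0.986) and CTNNAL1 (r = −0.984). This likeness is over 8 libraries within groups, and none of the 9 genes named here for it shared the difference between groups seen for TPM2, their log2 differences lying between −0.01 and 0.11.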

How the data were processed

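RNA from 4 control and 4 CML-exposed libraries of MDA-MB-231 cells was sequenced, and the groups and replicate numbers were taken from the sample labels. The authors deposited normalized CPM values, 1 column per library. The submitters' processing notes name edgeR and hg38. The study's methods, in a section titled for cultured cells too but worded for the tumors, describe a stranded library kit, trimming with Trimmomatic, Tophat alignment to hg19 with Ensembl annotation, and TMM-scaled CPM. Which of these steps apply to this experiment, and whether counting used strand, is not given in the sources used here. The columns summed to between 986730.4 and 1014124.4. All 8 columns of values were used. Between 85.0% and 86.1% of the values above 0 were whole numbers of reads (within 0.02 of a read), so the reads behind the table are estimates and no count test was run.

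Rows with the same symbol (32 symbols) were averaged, giving 17649 genes from 17681 rows, and log2(CPM + 1) was computed. Fold changes are on this scale, which understates the change of low genes. The groups were compared across all genes with limma 3.58.1 in R 4.3.3 (trend of the variance with expression, Benjamini-Hochberg adjustment, threshold 0.3). The code was tested on simulated data. Transcript lengths, GC content and overlaps came from GENCODE 44 lifted to GRCh37, and coordinates and promoters from RefSeq GRCh38.p14. As alternatives, libraries were centred or quantile normalized, 1 library at a time was left out, a replicate block was fitted, the trend was dropped, a pseudocount of 0.1 was used, genes averaging under 1 CPM were left out, and no length was applied to the tropomyosins. A correction of each library for GC content and transcript length by natural splines and the median transcript length were added after seeing the data. Figures used matplotlib 3.10.9 in Python 3.11.15.

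The 10 genes and all lists were chosen with earlier results of these data known. Named from each list were the 3 genes with the highest mean CPM and up to 5 with an adjusted p under 0.3. MRTFA, MRTFB, MYOCD, NR4A1, PLS1, DAAM1, CAPG, PLS3, PDLIM5, PALLD, TES, TWF1, DES, ACTG2, KRT18, KRT8, EPCAM, CDH1, PDGFRA, COL1A2, DCN and PTPRC were added after their values were seen. For likeness to TPM2, the 5 highest and 5 lowest correlations were named. Genes that the rule selects but the text leaves out are not reported here.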

Additional observations from a re-analysis of the deposited data

Results flagged for a closer look

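In 22 groups of 4 libraries, the gap between the most extreme library and its nearest neighbour was compared with the group's range (Dixon's criterion at 95%), and 3 were past it where chance gives about 1.1. TPM1 in CML replicate 1, at 68.89 CPM, lay below the other CML libraries, which were between 70.38 and 70.63 CPM. TPM4 in CML replicate 4, at 1044 CPM, lay above the other CML libraries, which were between 1012 and 1016 CPM. Control replicate 4 had 17729526 estimated reads, more than the other control libraries.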

How the results depend on the processing

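The TPM2 difference kept its direction in all alternatives, lying between −0.29 and −0.24 with 1 library left out and at −0.28 with a pseudocount of 0.1. Of 150 alternative values for the 10 genes, 1 moved by more than the spread between replicates, that of TPM3 under quantile normalization (0.05). With 1 library left out, SRF lay between −0.03 and 0.03 and the other genes kept their sign. Besides the reported comparison, TPM3 was called only without control replicate 4 and with GC content and length removed, where TPM2, TPM4, MYL9 and ACTN1 were called too. The number of genes called in the whole table was less stable. It was 158, and it became 73 with centred libraries, 877 with GC content and length removed, and between 20 (without CML replicate 2) and 690 (without control replicate 4) with 1 library left out. At an adjusted p under 0.05, the 0 calls became 36 without genes averaging under 1 CPM and 171 with GC content and length removed. They became 12 without control replicate 4, and stayed at 0 with centred libraries and with the replicate block. Of the listed genes, 16 were called with GC content and length removed and between 2 and 13 with 1 library left out. The TPM2 share of tropomyosin mRNA differed by −0.216 percentage points without length correction, by −0.356 with the median transcript length, and by between −0.557 and −0.421 with 1 library left out. Beyond what fewer libraries and shares without a length imply, the cause of these changes was not tested.

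The groups share replicate numbers in the labels. Deviations of same-numbered libraries from their group means correlated at 0.199, −0.030, −0.065 and 0.334 for numbers 1 to 4, so the numbers were not taken to pair the libraries. A limma fit that included this block gave 189 calls (136 higher, 53 lower), and 82 of these genes were also called without it. It kept the 6 calls of listed genes, added MYH9 and PDLIM5, and lost that of TPM3.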
